A study of Rattus norvegicus with 8 samples.

Results

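Apoe and Clu encode major lipid-carrying secreted proteins of glia, and 2 of the 32883 gene identifiers in the count table, ENSRNOG00000018454 (Apoe) and ENSRNOG00000016460 (Clu), are described here. They were picked by name, with earlier results of these data known. The samples were lower lumbar spinal cord of outbred Sprague Dawley rats, profiled with CEL-Seq2. This method sequences the 3′ ends of polyadenylated transcripts and gives every captured transcript a random identifier, by which copies made in amplification are recognised. The 4 injured libraries came from rats 4 days after a hemisection, a cut through one side of the cord, at thoracic level 9. The 4 uninjured libraries came from rats without spinal cord injury. The labels give no sham operation, side of the cord, age or sex. They do not say whether each library came from a separate animal, so the spread behind each p-value is that between libraries and may be technical. The study asked what an injury higher up does to gene expression in lower cord that was itself left intact.

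Apolipoprotein E is made in the central nervous system mostly by astrocytes, and by microglia when they are activated. It is secreted on particles that carry cholesterol and phospholipids, which neurons and glia take up through receptors of the LDL receptor family. Clusterin, also called apolipoprotein J, is made by astrocytes, by ependymal cells and by some neurons. It rides on similar particles, binds misfolded proteins outside the cell as a chaperone, and blocks the membrane attack complex of complement. In a sample of whole tissue, a change in the number of cells of a type and a change in RNA per cell cannot be told apart.

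Both transcripts were among the most abundant of the lower lumbar cord, and neither changed past the test 4 days after the injury. Apoe was at nearly the same level in injured and uninjured cord, at 0.939-fold. Clu stood 1.30-fold higher in injured cord, an excess carried most by 1 of the 4 injured libraries. Of all genes, 41 of the 4159 that were tested (0.986%) passed edgeR's quasi-likelihood test at a Benjamini-Hochberg adjusted p under 0.05, and Apoe and Clu were not among them.

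The shallowest library held 119808 molecules and the deepest 405537, which is 3.38 times as many; replicate 3 was the shallowest in both groups. Ranked by mean count over the 8 libraries, Apoe was the 25th and Clu the 32nd most abundant gene of the table. Apoe averaged 1047 molecules per library and Clu 755.5, against a median of 23.9 for the tested genes. Within single libraries, Apoe ranked between 21 and 25 in injured cord and between 22 and 29 in uninjured cord. Clu ranked between 23 and 44 in injured cord and between 35 and 54 in uninjured cord.

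Counts this high can be held down by the number of different identifiers. If the identifiers have 6 bases, 4096 of them exist, and molecules of a gene that draw the same one are counted once. The length of the identifiers is not stated in the sources, but the top count in any one library was never under 3989 and never over 4080, in deep and shallow libraries alike. Apoe and Clu stayed well below that level. Apoe reached 33.7%, 33.8%, 13.7% and 22.1% of 4096 in injured libraries 1 to 4, and 32.0%, 24.9%, 12.1% and 32.1% in uninjured replicates 1 to 4. Clu reached 24.1%, 27.4%, 8.79% and 23.5% in the injured replicates, and 22.3%, 15.04%, 5.35% and 21.1% in the uninjured ones. Counts of both genes varied more between libraries than those of the most abundant genes did at the median. The highest Apoe count was 2.79 times the lowest and the highest Clu count 5.13 times the lowest. The corresponding median over the 17 genes that passed 2048 molecules in any library was 1.69. These genes were picked by their high counts, and the counts were not scaled for depth, so the comparison does not set Apoe apart from them. Library totals ranged 3.38-fold, more than Apoe did. Some of the 17, such as ENSRNOG00000062158 with 823 to 2844 molecules, also ranged more widely than Apoe.

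**Figure D1:**
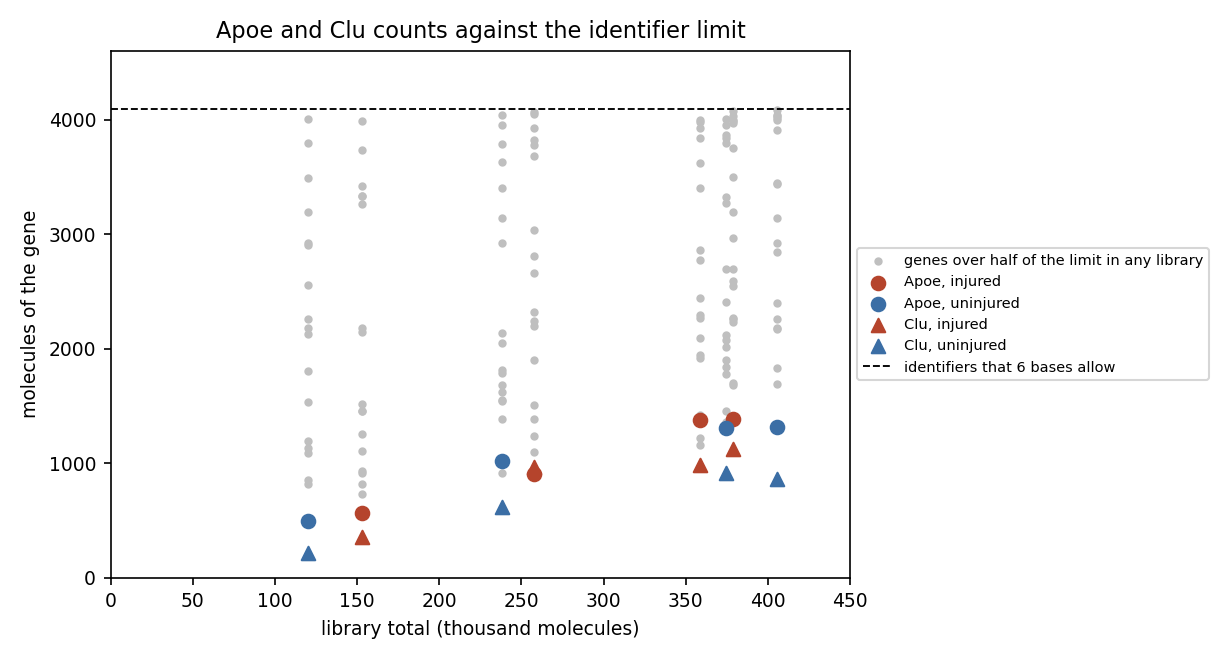
Molecules of Apoe (circles) and Clu (triangles) in each of the 8 libraries, injured in red and uninjured in blue, against the total of the library. Grey points are the 17 genes with more than 2048 molecules in any library, and the dashed line marks 4096; Apoe and Clu reach at most 1386 and 1123 while the top grey points lie near the line at every depth.

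A smaller loss to shared identifiers still applied, and it grew with the count. Estimating the molecules behind each count from random draws of 4096 identifiers added between 6.59% and 22.1% to Apoe and between 2.77% and 16.9% to Clu. In the library with the most Apoe, injured replicate 2, 1386 counted molecules corresponded to 1692 (95% interval 1653 to 1731, for the draw of identifiers only). In the library with the least Clu, uninjured replicate 3, 219 counted molecules corresponded to 225.1 (95% interval 220.2 to 230.0).

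Apoe, the cholesterol carrier, had 1381, 1386, 562 and 906 molecules in the injured libraries 1 to 4, against 1310, 1021, 496 and 1316 in uninjured replicates 1 to 4. As a share of all molecules of the library it took 0.385%, 0.366%, 0.367% and 0.352% in the injured replicates, and 0.350%, 0.429%, 0.414% and 0.325% in the uninjured ones. The injured libraries all lay inside the range of the uninjured ones, 2 of which were higher and 2 lower than every injured library. In CPM, here TMM-scaled counts per 1000000 molecules of the tested genes, Apoe averaged 3930 ± 304.4 in injured and 4192 ± 1192 in uninjured cord (SD, n = 4 each). The log2 fold change of Apoe was -0.090, with standard error 0.28 (edgeR adjusted p = 0.991, unadjusted 0.753). The 95% interval of the fold change ran from 0.622 to 1.42, so that a rise of 2-fold or more lay outside it. This did not hold in the libraries numbered 3 and 4 alone, where the interval ran from 0.420 to 2.002.

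Apoe was spread more widely over the uninjured libraries than over the injured ones. The coefficient of variation of the Apoe share was 3.66% over injured and 13.2% over uninjured libraries. Its size depended on the scale. It was 7.75% and 28.4% in CPM, and 3.83% and 22.5% in CPM corrected for shared identifiers. The difference in spread was not tested. Counting error alone did not cover the uninjured spread, since uninjured replicates 2 and 4 had exact 95% binomial intervals of 0.403% to 0.456% and 0.307% to 0.342%. The uninjured shares were higher in replicates 2 and 3, of 238236 and 119808 molecules, than in replicates 1 and 4, of 374649 and 405537. In the injured libraries the shares did not follow depth in this way. In CPM, however, Apoe fell as the library total rose in both groups. From the shallowest to the deepest library it was 4379, 3821, 3815 and 3703 in injured replicates 3, 4, 1 and 2. It was 5747, 4498, 3367 and 3158 in uninjured replicates 3, 2, 1 and 4. After correction for shared identifiers the injured order was lost, with replicate 4 the lowest of its group at 3400 CPM. Whether depth added to the spread of either group was not tested. The direction of the small Apoe difference rested on uninjured replicate 3, the shallowest library. That library had the highest CPM, 5747, but not the highest share, because its TMM factor of 0.764 raises its values. Shares have a limit of their own, since the totals include genes near 4096 molecules, some of which hardly rose with depth. ENSRNOG00000043866 had 4007 of 119808 molecules in uninjured replicate 3 and 4080 of 405537 in uninjured replicate 4. Such genes take up more of a shallow library, and their effect on the shares of Apoe and Clu was not tested. Without uninjured replicate 3 the log2 fold change of Apoe was 0.093 (edgeR adjusted p = 0.953).

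Clu, the secreted chaperone, had 986, 1123, 360 and 964 molecules in the injured libraries 1 to 4, against 912, 616, 219 and 864 in uninjured replicates 1 to 4. Its share of all molecules was 0.275%, 0.297%, 0.235% and 0.375% in the injured replicates and 0.243%, 0.259%, 0.183% and 0.213% in the uninjured ones. By share the groups overlapped, since injured replicate 3 lay below uninjured replicates 1 and 2. In CPM the levels were 2724, 3000, 2805 and 4066 in injured libraries 1 to 4, against 2344, 2714, 2537 and 2073 in uninjured replicates 1 to 4. Every injured library was above every uninjured one on that scale, by the small margin between injured replicate 1 and uninjured replicate 2. Such a separation upwards was found for 3.08% of tested genes.

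Mean Clu was 3149 ± 622.1 CPM in injured and 2417 ± 274.6 CPM in uninjured cord (SD, n = 4 each). This gave a log2 fold change of 0.38, with standard error 0.25 (edgeR adjusted p = 0.890, unadjusted 0.150), and the 95% interval of the fold change ran from 0.8999 to 1.89. The difference did not pass. A rise of 2-fold or more lay outside this interval, but not in every fit: the upper limit was 2.07, 2.03 and 2.04 without injured replicate 1, 2 or 3, 2.10 without uninjured replicate 2, and 2.89 in numbers 3 and 4 alone. DESeq2 and limma-voom did not call it either, with adjusted p of 0.947 and 0.741.

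**Figure D2:**
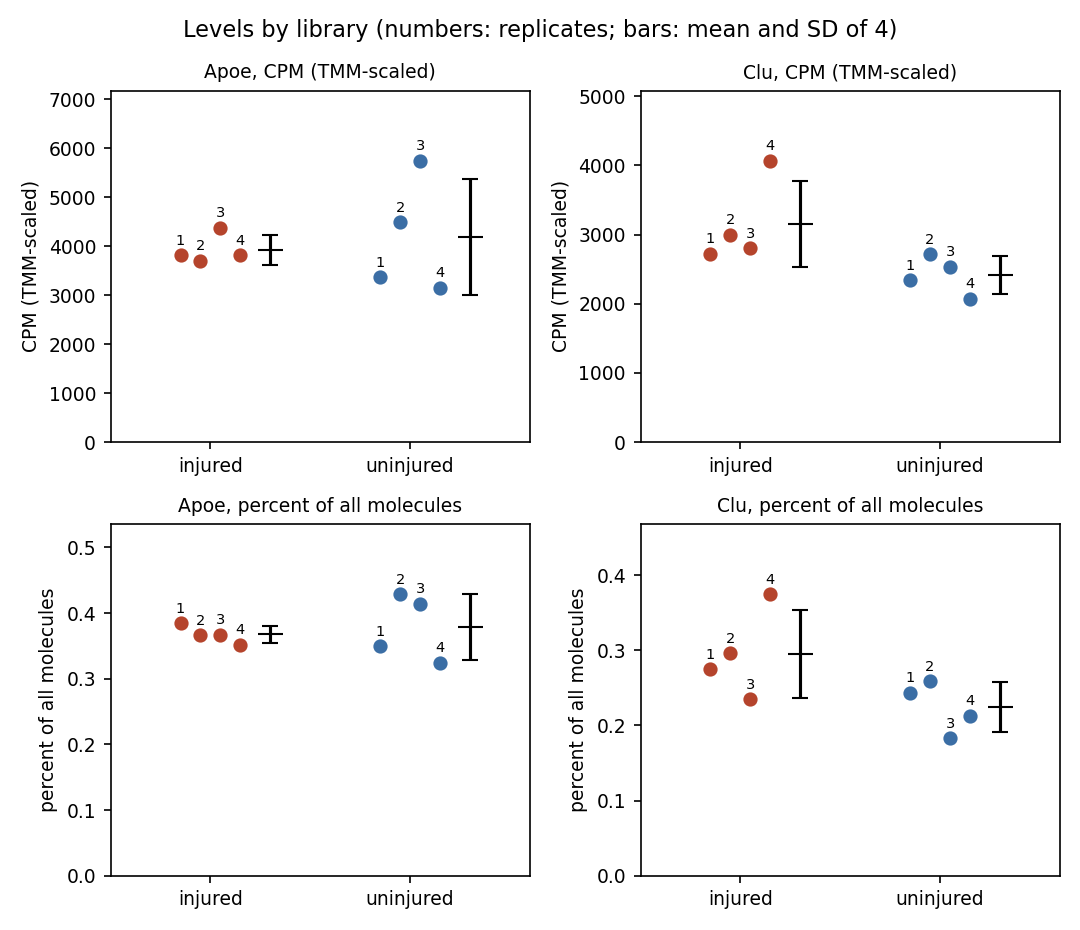
Apoe (left) and Clu (right) in each library as TMM-scaled CPM (top) and as percent of all molecules (bottom), with replicate numbers beside the points and the mean and SD of 4 libraries as bars. Apoe in injured cord lies inside the uninjured range as a share; Clu is highest in injured replicate 4, at 4066 CPM and 0.375%.

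Libraries with the same number in both groups deviated together across all genes, weakly so for number 3, and the number was also used as a block. By number, the injured to uninjured ratio of Apoe CPM was 1.13, 0.823, 0.762 and 1.21 for numbers 1 to 4, with 2 ratios above 1 and 2 below. The ratio of Clu CPM was 1.16, 1.11, 1.11 and 1.96. Clu was thus higher in the injured library of all 4 numbers, a pattern shown by 10.7% of tested genes. Number 4 stood apart in size. Its injured library had the highest Clu CPM and its uninjured library the lowest. Without injured replicate 4, the log2 fold change of Clu was 0.24 (edgeR adjusted p = 0.967), and without uninjured replicate 4 it was 0.31 (edgeR adjusted p = 0.933). Within numbers 1 and 2 alone it was 0.19 (edgeR adjusted p = 0.868), and within numbers 3 and 4 alone 0.57 (edgeR adjusted p = 0.9995).

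With the number as a block, 110 genes (2.64%) passed over the whole table, and again Apoe and Clu were not among them. The blocked log2 fold change was -0.052 for Apoe (standard error 0.20, edgeR adjusted p = 0.951) and 0.37 for Clu (standard error 0.19, edgeR adjusted p = 0.406). Correcting all genes for shared identifiers, without the block, gave -0.076 for Apoe (edgeR adjusted p = 0.989) and 0.43 for Clu (edgeR adjusted p = 0.788). With correction and block together, the Clu interval ran from 1.02-fold to 1.74-fold (unadjusted p = 0.0381, edgeR adjusted p = 0.310). After correction Apoe averaged 3584 ± 137.4 CPM in injured and 3785 ± 853.6 CPM in uninjured cord, and Clu 2796 ± 599.8 CPM in injured and 2079 ± 194.5 CPM in uninjured cord (SD, n = 4 each). Corrected CPM are relative to totals that were corrected too, and the correction adds most to the highest counts. They are therefore not on the scale of the deposited CPM, and their lower level is not a loss of molecules.

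**Figure D3:**
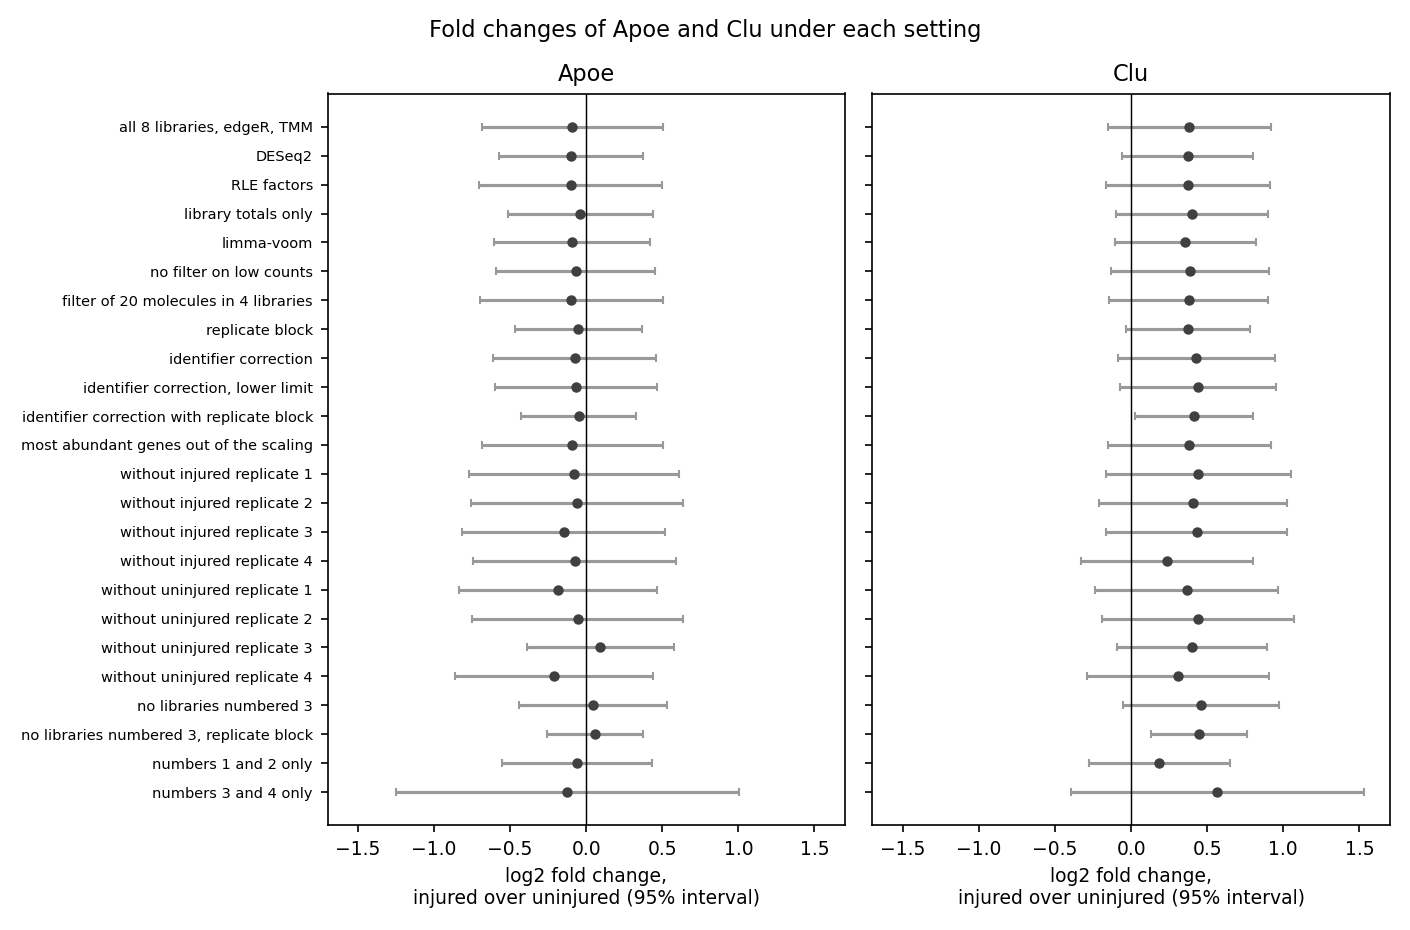
Log2 fold changes of Apoe (left) and Clu (right), injured over uninjured, with 95% intervals, for the fit to all 8 libraries (top) and each other setting. Clu is above 0 in every setting and its adjusted p never passes, while Apoe lies between -0.21 and 0.093 and changes sign when the libraries numbered 3 or uninjured replicate 3 are left out.

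The ratio of the 2 transcripts within a library does not depend on the scaling factors, and shows only unequal change. It is not free of depth, since shared identifiers take more from the higher count, and correction moved it to 1.64 in uninjured replicate 4, against 1.52 as deposited. There were 1.40, 1.23, 1.56 and 0.940 Apoe molecules per Clu molecule in injured libraries 1 to 4, against 1.44, 1.66, 2.26 and 1.52 in uninjured replicates 1 to 4. Injured replicate 4 was the one library in which Clu outnumbered Apoe. On the log2 scale the ratio averaged 0.34 ± 0.32 in injured and 0.76 ± 0.29 in uninjured libraries (SD, n = 4 each). The difference of -0.42 did not pass an exact two-sided permutation test over the 70 assignments of libraries (p = 0.0857, where the smallest possible is 0.0286). Injured replicate 3 overlapped the uninjured range. The difference rested in part on single libraries: it was -0.28 without injured replicate 4 and also -0.28 without uninjured replicate 3 (exact permutation p = 0.200 for each). Within numbers 1 and 2 alone it was -0.23, and within numbers 3 and 4 alone -0.62, where 2 libraries against 2 cannot pass a permutation test. The ratio was lower in the injured library of all 4 numbers, and the exact sign-flip test over these pairs gave p = 0.125, the smallest that 4 pairs allow, so that it could not pass. With corrected counts the difference was -0.46 (exact permutation p = 0.0571).

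**Figure D4:**
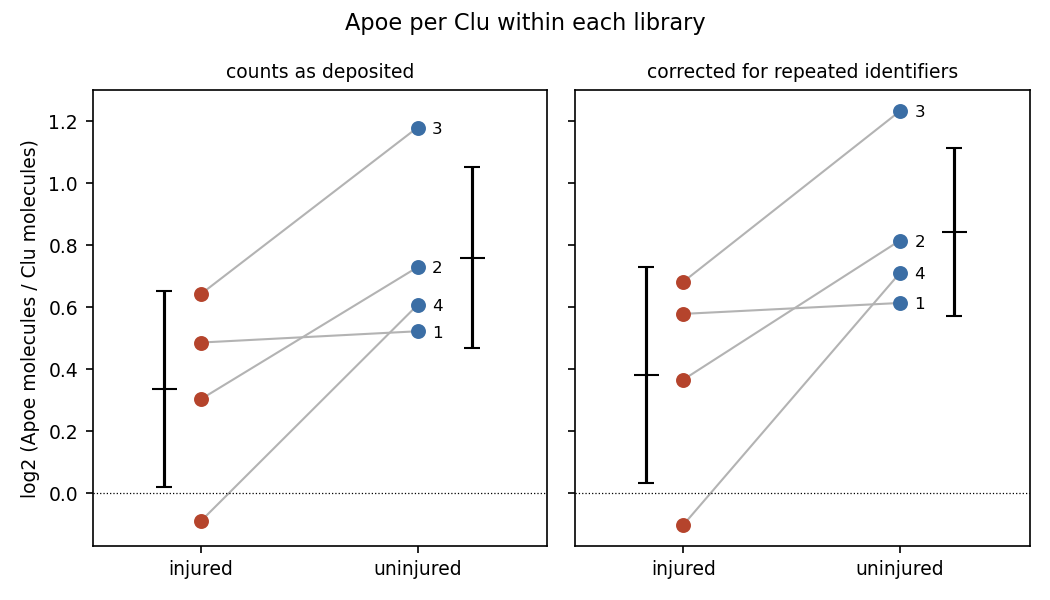
Log2 ratio of Apoe to Clu molecules in each library, injured (red) and uninjured (blue), with lines joining libraries of the same number and bars for the mean and SD of 4 libraries, for deposited counts (left) and counts corrected for repeated identifiers (right). Each line is lower on the injured side, by little for number 1, and the injured library of number 4 is the only point below 0.

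The members were also set beside genes of like abundance. For Apoe, 47 tested genes had a mean count within 2-fold, and their median log2 fold change was -0.099, against -0.015 over all tested genes and -0.090 for Apoe. The SD of log2 CPM within groups, pooled over a narrow injured and a wide uninjured group, was 0.29 for Apoe and 0.38 at the median of these genes, 32 of which varied more. For Clu, 74 genes had a mean count within 2-fold, with a median log2 fold change of -0.085. The log2 fold change of 0.38 for Clu was exceeded by 8 of them. Its within-group SD was 0.22, against a median of 0.34, and 63 of the 74 varied more. None of the 47 genes near Apoe or the 74 near Clu passed the edgeR test in either direction. With 0.986% of all tested genes called, sets this small can be expected to hold none or few, so this shows no contrast. The ranges of mean count behind these sets also overlap.

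Apoe and Clu did not follow each other closely. Over the 8 libraries, which share their scaling factors, the Pearson correlation of their log2 CPM was 0.16, and 1563 tested genes were more like Apoe than Clu was. The genes most like Apoe were ENSRNOG00000011502 (r = 0.98, 65.5 molecules per library on average) and ENSRNOG00000034234 (r = 0.94, 1717 molecules). Those most like Clu were ENSRNOG00000055089 (r = 0.95, 79.6 molecules) and ENSRNOG00000020922 (r = 0.91, 68.6 molecules). These coefficients are the highest of 4158 and describe 8 libraries only. ENSRNOG00000034234, with 2255 molecules in injured replicate 2, was among the 17 genes over 2048 molecules in any library. Loss to shared identifiers is larger at its counts than at those of Apoe. No symbol could be paired with these 4 gene identifiers. Their log2 fold changes after injury were -0.023, -0.19, 0.31 and 0.55, and each missed the threshold (edgeR adjusted p = 0.999, 0.991, 0.908 and 0.536).

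In the RefSeq annotation of the rat genome build GRCr8, Apoe lies between Apoc1, with Apoc4 and Apoc2 beyond it, and Tomm40. The span of Clu overlaps that of its neighbour Scara3, which encodes a scavenger receptor. No source states the strand setting of the counting, and a contribution of Scara3 reads to the Clu count was not tested. The counts were made on another build, Rnor_6.0, and positions are therefore not given.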

How the data were processed

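The authors deposited 1 table of molecule counts, whole numbers per Ensembl gene for 8 CEL-Seq2 libraries, with no normalization. Per the submitters' processing notes, HISAT2 2.0.4, HTSeq 0.6.0 and build Rnor_6.0 were used; how identifiers were collapsed and which annotation release served are not stated there. The table pairs no identifier with a symbol, and the reference holds an Ensembl identifier for 0 of 47357 genes. The names Apoe and Clu came with the choice of the 2 identifiers and could not be checked; lists of lipoprotein, receptor, cholesterol and cell type marker genes were not analysed here, nor was the tissue checked against markers. Members and lists were chosen with earlier results of these data known.

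Genes were kept with filterByExpr (minimum count 10, minimum total 15; 4159 genes) and tested with edgeR 4.0.16 in R 4.3.3 (TMM, robust quasi-likelihood F test, two-sided, Benjamini-Hochberg adjustment, threshold 0.05), without a block. Standard errors were derived from the fitted value and F. CPM are counts per 1000000 molecules of the tested genes, after TMM scaling of the totals. Alternatives used limma 3.58.1 (voom) and DESeq2 1.42.0. Shared identifiers were corrected as -K ln(1 - n/K) for count n and K = 4096, rounded to whole numbers before fitting. For likeness, log2 CPM had a prior count of 3. Scripts were tested on simulated data. Deviations from group means correlated at 0.39, 0.36, 0.17 and 0.45 for numbers 1 to 4 of the titles, and between -0.39 and 0.24 for different numbers, 2 of which exceeded the value for number 3. Each same-number value was over 0.1, so the numbers were taken as pairs, on the data and not a stated design. Binomial intervals (Clopper-Pearson) cover counting error only. Beyond Apoe and Clu, the rule for named genes took the 2 identifiers most correlated with each.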

Additional observations from a re-analysis of the deposited data

How the results depend on the processing

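Apoe and Clu missed the adjusted threshold in all 23 alternatives run, and leaving out 1 library at a time gave log2 fold changes from -0.21 to 0.093 for Apoe and from 0.24 to 0.44 for Clu. The sign of the Apoe value turned without uninjured replicate 3 (0.093), without both libraries numbered 3 (0.043), and without these with the replicate block (0.059, a setting chosen after seeing the data); the cause was not tested. Clu came nearest to the threshold in that last setting, with a log2 fold change of 0.44 (edgeR adjusted p = 0.0709). Its adjusted p ran up to 0.9999 over the alternatives. The replicate block changed no call of Apoe or Clu. The difference in log2 Apoe per Clu ran from -0.53 to -0.28 over 12 alternatives (exact p from 0.0571 to 0.200). Its lowest value came without injured replicate 3 and its highest without injured replicate 4. The exact permutation test of 3 against 3 without the libraries numbered 3 (p = 0.1) and the exact sign flips over pairs (p = 0.125) gave the smallest p they allow, which cannot pass, so these p-values say nothing about stability. With the limit at the highest count plus 1, also chosen after seeing the data, mean use of identifiers was 25.7% for Apoe and 18.5% for Clu, against 25.6% and 18.4%.

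The number of genes called over the table is given beside the number tested, which differed between settings. With no filter on low counts 98 of 12968 were called, a smaller share than the 41 of 4159 with the filter. The replicate block gave 110 of 4159, and identifier correction with the block 112 of 4135. Dropping both libraries numbered 3 gave 62 of 4660, and 383 of 4660 with the block as well. There were 86 of 4768 for numbers 1 and 2 only and 3 of 3226 for numbers 3 and 4 only. Fits that each lack 1 library called 23 to 77. The count was 23 of 3935 without uninjured replicate 1, 23 of 3932 without uninjured replicate 4 and 77 of 4705 without uninjured replicate 3. Planned lists could not be run without symbols. Depth limits Clu most in uninjured replicate 3, where 219 molecules gave an exact 95% binomial interval of 0.159% to 0.209%.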
